A study of Zea mays and Oryza sativa with 119 samples.

Results

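The 150 maize genes described here had their highest mean level in sections 9 to 12 of the third leaf and were ranked by how far that mean stood above sections 4 and 16. They were chosen by their measured levels in a table of FPKM values (fragments scaled to transcript length and to the mapped fragments of the library) for 110005 features. A gene was eligible if its highest section mean of log2(FPKM + 1) fell in section 9, 10, 11 or 12 and its mean FPKM there was at least 10. This held for 985 genes, and the 150 with the largest log2 difference between the highest mean and the larger of the means of sections 4 and 16 were taken. The same libraries therefore chose the members and fixed their pattern across sections 4, 9 to 12 and 16, so those levels are given as a description with no test.

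The libraries came from the inbred line B73, grown for 9 days, with the third leaf divided into 15 segments of 1 cm. Each replicate was a pool averaging 7 plants, and replicates were collected on different dates. All groups shared the line, age and growth conditions and differed only in the segment. Sections 1 to 4 and 6 to 16 were sampled in replicates 1, 2, 3, 4 and 6, which gave 75 libraries, of which 67 were used and 8 left out (replicate 2 of section 1, replicate 6 of sections 3 and 16, and all 5 libraries of section 7). Which end of the blade section 1 came from is not in the labels. The dividing-cell genes PCNA and his2b5 averaged 18.1 and 253 FPKM in section 1, against 0.738 and 1.81 FPKM in section 16. The phloem gene SUT1 averaged 7.10 FPKM in section 1 and 313 FPKM in section 16. As a grass leaf grows from its base, these levels place section 1 at the base end. A rice table of 44 libraries in the same series was not used.

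A grass leaf grows from its base, so the sections along a blade form a series of cell ages, from dividing cells through greening cells to mature tissue that exports sugar. In maize, C4 photosynthesis is set up along this series as mesophyll and bundle sheath cells take on separate parts of carbon fixation. The series asked how that differentiation proceeds. Genes with a maximum inside the blade can mark a passing stage, such as vein or wall maturation, metal supply to the plastids, or defence.

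Sequencing depth relative to other libraries, read from the spacing of the lowest FPKM values, ranged over 0.162 to 2.00 in the used libraries. Section 8 was the shallowest, with a median of 0.229, and section 9 had a median of 0.545, against a median of 1.09 over the used libraries. By its profile over the genes with a mean FPKM of 1 or more, each library was matched to the section mean of the other replicates that it resembled most. The best match was the library's own section in 45 of 67 cases and the next one in 17. Replicate 4 of section 12 matched section 9, replicate 2 of section 14 matched section 4 and replicate 3 of section 16 matched section 12. The leaf label held: rbcS, the small subunit of Rubisco, averaged 7359 ± 467 FPKM in section 11 (SD, n = 5), its highest section. Other markers were highest elsewhere. The mesophyll genes pep1 and C4ppdkZm1 were highest in sections 8 and 15, and the bundle sheath gene ME1 in section 13. The greening genes cab48 and cab-m1 were highest in section 6, and the phloem genes SUT1, SWEET13a, SWEET13b and SWEET13c in section 16. The dividing-cell genes PCNA, pcna2 and his2b5 were highest in section 1. Because whole sections were used, fewer cells of a type and less RNA per cell cannot be told apart.

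The members did not form a uniform set of genes with a maximum in the middle of the series. Only 57 of the 150, or 38.0%, were listed above 0 in all 5 libraries of their highest section, against 746 of the other 835 eligible genes, or 89.3%. A further 45 members were above 0 in 1 of those 5 libraries, 26 in 2, 13 in 3 and 9 in 4. In 71 members, or 47.3%, the median of the highest section was 0, against 78, or 9.34%, of the other eligible genes. The 150 members were listed above 0 in a median of 11.5 of the 67 libraries, and the others in a median of 67.

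**Figure D1:**
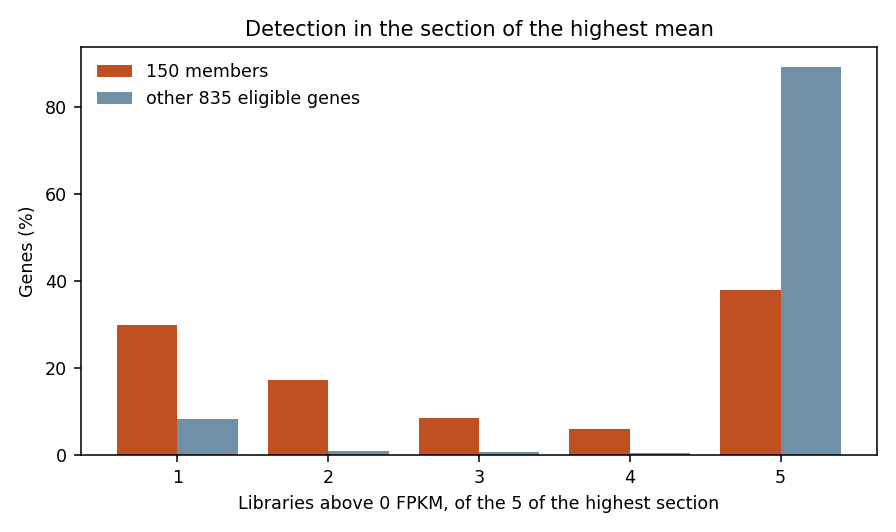
Share of genes (%) by the number of the 5 libraries of their highest section with an FPKM above 0, for the 150 members (orange) and the other 835 eligible genes (blue). Members were above 0 in all 5 libraries in 38.0% and in 1 library in 30.0%, against 89.3% and 8.26% of the others.

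A value in 1 library was enough to bring a feature in. In 28 members only 1 of the 67 libraries was above 0, and in 47 the highest library held over 80% of the sum of the highest section. In 58 members the value in the highest library was exactly equal to that of at least 1 other feature of the same library, and 19 of the 28 single-library members were among them. An exact 0 in such a table can be a low count or a failed estimate, so the zeros say only how the feature is listed. The median of the highest section was 0 in 14 of the first 50 ranks, 22 of the next 50 and 35 of the last 50.

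The limit of the list lay among unlike features. The last member but 1, GRMZM2G588847, had a difference of 1.40 that rested on 126 FPKM in replicate 4 of section 10. The last member, GRMZM2G485630, also had 1.40 and was above 0 in 1 library, replicate 2 of section 12, at 125 FPKM. Just outside, GRMZM2G142549 and GRMZM2G336975 both had a difference of 1.39 and were above 0 in all 5 libraries of section 11, with means of 10.6 ± 1.52 and 11.9 ± 1.68 FPKM (SD, n = 5).

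By section, 45 members were highest in section 9, 34 in section 10, 34 in section 11 and 37 in section 12. A median of 0 was found in 19, 13, 13 and 26 of them, so section 12 held the largest share of such features, 70.3%. Among the other eligible genes the share was also largest in section 12, at 19.4%, against 6.99%, 8.27% and 9.00% in sections 9, 10 and 11. In 34 members every library of the highest section lay above every used library of sections 4 and 16. Of all 1618 tested genes highest in sections 9 to 12, 21.7% were separated in this way, and the rule itself used that comparison, so nothing is read from the members' count. The 34 were 15 of section 9, 10 of section 10, 9 of section 11 and 0 of the 37 of section 12. Of the other eligible genes, 100 of 272, 89 of 254, 78 of 211 and 11 of 98 were separated in sections 9, 10, 11 and 12. The 34 are called the separated members below, a split made after the values were seen, and the description of gene levels rests mostly on them.

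The separated members had their highest means in sections 9 to 11 and lower means on both sides. Averaged over the 34 genes and then over libraries, log2(FPKM + 1) was 1.24 ± 0.13 in section 1 (SD, n = 4), 1.76 ± 0.61 in section 2 (n = 5), 1.66 ± 0.53 in section 3 (n = 4), 2.32 ± 0.47 in section 4, 3.18 ± 0.23 in section 6, 4.10 ± 0.41 in section 8, 4.97 ± 0.27 in section 9, 5.01 ± 0.11 in section 10 and 5.00 ± 0.12 in section 11 (n = 5 each). It was 4.24 ± 0.29 in section 12, 4.21 ± 0.20 in section 13, 3.38 ± 0.63 in section 14 and 3.48 ± 0.20 in section 15 (n = 5 each), and 2.84 ± 0.31 in section 16 (n = 4). Sections 9, 10 and 11 differed by less than the spread between their libraries. The 71 members with a median of 0 had low means throughout, at most 0.87 in section 12.

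**Figure D2:**
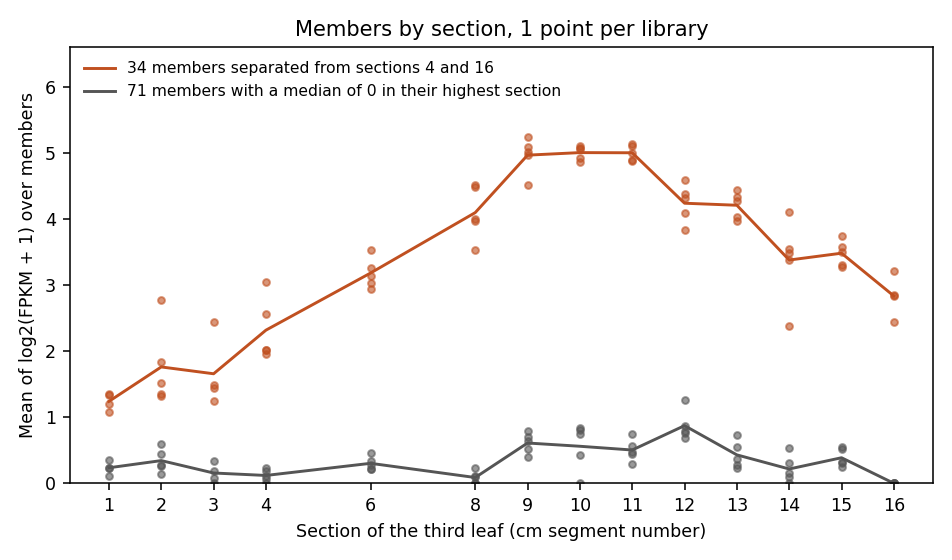
Mean of log2(FPKM + 1) over members against section number, 1 point per used library and a line through the section means, for the 34 separated members (orange) and the 71 members with a median of 0 in their highest section (grey). The orange means stand near 5 in sections 9 to 11, while the grey means are at most 0.87.

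How sharp the maximum was differed among the 34. Counting the sections with a mean FPKM of at least 50% of the maximum, the median was 4 of the 14 sections, with a range of 1 to 8. In 8 genes it was 1 or 2 sections, in 19 it was 3 to 5 and in 7 it was 6 or more. In some genes the counted sections had gaps between them, so the count is not the width of a single peak. AC202971.2_FG012, for one, had 7 such sections between sections 3 and 14, and GRMZM2G549123 had 4 between sections 8 and 15. Among the 278 other eligible genes separated in the same way the median was 10 sections; the ranking chose steep profiles, so this contrast follows from the rule. The mean of section 15 was above that of section 3 in 32 of the 34, or 94.1%, against 261 of the 278, or 93.9%, and above that of section 6 in 20, or 58.8%, against 177, or 63.7%. These shares were close in both sets.

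A RefSeq entry was found for 24 of the 150 members, or 16.0%, against 468, or 56.0%, of the other eligible genes. Of the 24, 10 carried a name: 5 protein-coding genes, all of them separated members, and 5 microRNA hairpins, none of which was. The remaining members are given by identifier, chosen after their values were seen. No pair of the 24 lay within 5 genes of each other in the reference order.

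Of the named proteins, ys1 (GRMZM2G156599, rank 11) had the largest difference. It encodes the transporter that takes up iron bound to phytosiderophores, and maize plants without it have yellow-striped leaves. In section 11 its 5 libraries held 26.1, 33.2, 31.5, 34.5 and 35.2 FPKM, against 1.68, 1.10, 1.03, 1.66 and 1.42 FPKM in section 4 and 1.17, 2.16, 2.13 and 1.47 FPKM in section 16. The lowest library of section 11 was above every library of both other sections. Along the leaf ys1 was at most 0.262 FPKM in the used libraries of section 1, 3.78 to 5.21 FPKM in section 6, 13.8 to 17.4 FPKM in section 8, 14.2 to 42.2 FPKM in section 9 and 22.5 to 29.3 FPKM in section 10. After section 11 it was 4.12 to 15.5 FPKM in section 12, with the lowest value in replicate 4. That library matched section 9 over the genes with a mean FPKM of 1 or more, yet its ys1 level lay below every library of section 9. ys1 was 4.53 to 7.02 FPKM in section 13, 3.01 to 9.59 FPKM in section 14, which overlapped section 13, and 0.566 to 1.22 FPKM in section 15. The libraries of sections 9, 10 and 11 overlapped.

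PR-5 (GRMZM2G402631, rank 32), a thaumatin-like pathogenesis-related protein, was highest in section 9 with 18.3, 12.0, 24.7, 23.7 and 13.7 FPKM, against 1.12, 1.42, 0.617, 0.500 and 0.357 FPKM in section 4 and 2.82, 0, 3.79 and 4.43 FPKM in section 16. Section 10 held 11.1 to 24.2 FPKM and overlapped section 9, whereas section 8 held 1.69 to 5.76 FPKM and section 11 held 4.10 to 9.07 FPKM. The libraries of sections 8 and 11 were all below those of sections 9 and 10.

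The chitinase gene (GRMZM2G453805, rank 103), of a family that cleaves chitin of fungal walls, was highest in section 11 with 10.0, 16.7, 10.5, 16.9 and 13.0 FPKM, against 2.27, 1.91, 0.830, 0.673 and 1.44 FPKM in section 4 and 5.69, 1.45, 3.72 and 4.47 FPKM in section 16. Its libraries in sections 9, 10 and 12, at 5.13 to 13.5, 7.21 to 13.3 and 3.34 to 14.1 FPKM, overlapped those of section 11. Both defence genes by name were below 1 FPKM in every used library of section 1.

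LAC1 (GRMZM5G842071, rank 67), a laccase by its name, belongs to an enzyme family that in Arabidopsis polymerises lignin in cell walls. It was expressed along the whole blade, with 80.5, 94.9, 73.9, 96.6 and 78.6 FPKM in section 10, against 15.8, 14.7, 15.7, 16.9 and 38.1 FPKM in section 4 and 15.3, 19.9, 26.8 and 23.6 FPKM in section 16. Replicate 6 stood above the other pools in section 4. Sections 8 and 9, at 59.7 to 91.4 and 67.5 to 96.5 FPKM, overlapped section 10. LAC1 was 60.7 to 72.0 FPKM in section 11 and 50.2 to 51.8 FPKM in section 12, a narrow range that included replicate 4.

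The glutathione transferase gene gst24 (GRMZM2G032856, rank 104), of a family that conjugates glutathione to reactive compounds, had 46.3, 45.1, 47.2, 43.6 and 54.6 FPKM in section 10, against 16.4, 19.0, 9.48, 11.8 and 18.3 FPKM in section 4 and 11.7, 15.3, 14.5 and 9.89 FPKM in section 16. Section 9 held 25.2 to 52.2 FPKM and section 11 held 33.7 to 46.2 FPKM, so neither neighbour was apart from section 10. In section 1 it was at most 0.761 FPKM.

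**Figure D3:**
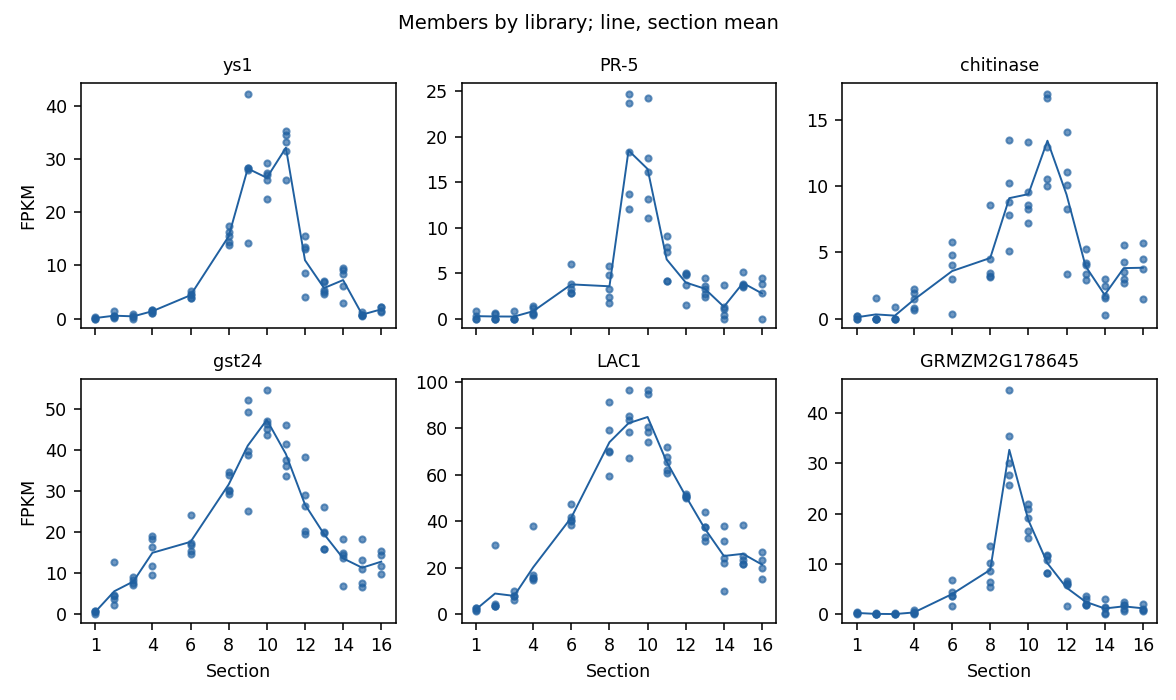
FPKM against section number for ys1, PR-5, the chitinase gene, gst24, LAC1 and GRMZM2G178645, 1 point per used library and a line through the section means. PR-5 and GRMZM2G178645 are high in sections 9 and 10, while LAC1 and gst24 have broad maxima that take in sections 8 to 12.

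Among the separated members without a name, ranks 9 and 10 were above 0 in every library of sections 6 to 12 that was used. GRMZM2G178645 (rank 9) had 30.1, 25.6, 44.5, 35.4 and 27.7 FPKM in section 9, against 0.898, 0.252, 0.329, 0 and 0.380 FPKM in section 4 and 0.752, 1.15, 0.932 and 1.97 FPKM in section 16. It was 15.2 to 21.9 FPKM in section 10 and 8.14 to 11.8 FPKM in section 11, so that each of these sections was below the one before it with no overlap. GRMZM2G056329 (rank 10) had 26.1, 18.0, 17.9, 18.8 and 14.4 FPKM in section 9, against 0.756, 0, 0, 0.674 and 0.481 FPKM in section 4, and was listed at 0 in all used libraries of section 16. Section 9 was its only section at 50% or more of the maximum. GRMZM2G307575 (rank 36) was the other gene with that width, with 107, 95.2, 142, 108 and 131 FPKM in section 9, against 20.0, 16.9, 15.4, 21.4 and 22.9 FPKM in section 4 and 15.1, 15.4, 25.5 and 21.1 FPKM in section 16. Its neighbours held 0 to 48.2 FPKM in section 8 and 8.11 to 34.9 FPKM in section 10.

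The highest levels among members above 0 in all 67 libraries were those of GRMZM2G137329 (rank 94) and GRMZM5G892308 (rank 65). GRMZM2G137329 had 463, 558, 484, 509 and 404 FPKM in section 9, against 23.4, 9.14, 10.5, 11.9 and 191 FPKM in section 4 and 143, 125, 190 and 135 FPKM in section 16. Replicate 6 was far above the other 4 pools in section 4, and again in section 2, where it held 150 FPKM against 0.590 to 3.65 FPKM in the others. GRMZM5G892308 had 239, 223, 222, 301 and 254 FPKM in section 10, against 56.8, 56.3, 36.8, 68.5 and 115 FPKM in section 4 and 42.0, 51.5, 85.0 and 61.6 FPKM in section 16, again with replicate 6 highest in section 4. GRMZM5G852619 (rank 45), above 0 in 66 libraries, had 317, 385, 350, 394 and 341 FPKM in section 11, against 44.3, 40.4, 40.6, 32.9 and 44.6 FPKM in section 4 and 54.0, 99.5, 68.9 and 63.1 FPKM in section 16.

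Replicate 6 was often the highest pool early in the series. In section 2 it was the highest of the 5 pools for 26 of the 34 separated members, or 76.5%, and for 249 of the 278 other separated eligible genes, or 89.6%. In section 4 it was highest for 16 of the 34, or 47.1%, against 159 of the 278, or 57.2%. In section 6 it was highest for 11 of the 34, or 32.4%, against 184 of the 278, or 66.2%. Its part in the ranking was not tested apart from leaving the replicate out, which kept 114 of the 150 members.

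The top of the ranking held features with scattered values. Rank 1, GRMZM5G875646, had a difference of 5.97 and 85.3, 221, 162, 135 and 422 FPKM in section 11, against 0, 113, 0, 0 and 0 FPKM in section 4 and 0, 0, 64.5 and 0 FPKM in section 16. It overlapped section 4, and single libraries of section 8 (990 FPKM in replicate 3 and 848 FPKM in replicate 6), of section 12 (953 FPKM in replicate 6) and of section 14 (729 FPKM in replicate 6) were higher than any library of section 11. GRMZM2G559108 (rank 2) had 893, 1077, 765, 990 and 1230 FPKM in section 9, against 0, 381, 0, 0 and 288 FPKM in section 4 and 568, 0, 235 and 0 FPKM in section 16. The groups did not overlap, but 27 of the 67 libraries listed it at 0. Near the end of the list, in GRMZM2G154621 (rank 148), the mean of section 9 rested on replicate 1, at 224 FPKM. The other 4 pools held 0.335 to 2.09 FPKM.

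The 5 hairpin features report reads over microRNA precursor loci in polyadenylated RNA and do not measure the mature microRNA. zma-MIR398a (rank 6), of a family that in Arabidopsis acts on copper superoxide dismutases, had 42.4, 204, 73.9, 0 and 63.3 FPKM in section 10 and 0 in every used library of sections 4 and 16. It was above 0 in 12 of the 67 libraries, among them 2 of section 11 and 2 of section 12. The family of zma-MIR396a (rank 80) acts on growth-regulating factors. This feature had 0, 91.2, 0, 159 and 0 FPKM in section 9, against 23.5 FPKM in 1 library of section 4 and 0 in the others. It was above 0 in 20 of the 67 libraries, so its values were not confined to section 9. Its change in section 3 against 1 was -1.56 ± 1.41 log2 units (SE), not called, so section 1 also held values. zma-MIR166c (rank 100), of the family acting on class III HD-Zip genes that pattern leaves, had 299 FPKM in 1 library of section 12 and 249 FPKM in 1 of section 15. zma-MIR2118b (rank 115) had 230 FPKM in 1 library of section 9 and 45.4 FPKM in 1 of section 15. zma-MIR393c (rank 125), of a family acting on auxin receptors in Arabidopsis, had 177 FPKM in replicate 4 of section 12 and was 0 in the other 66 used libraries.

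A small group had values in sections 8 and 9 and gaps on both sides. GRMZM2G033658, GRMZM2G022881, GRMZM2G177990 and GRMZM2G119008 were above 0 in all 5 libraries of section 9 and, of the 15 libraries of sections 10 to 12, in 1, 2, 1 and 0. GRMZM2G119008 had 62.9, 101, 108, 31.0 and 173 FPKM in section 9, against 0 in every library of section 4 and 53.4, 0, 22.0 and 196 FPKM in section 16. GRMZM2G022881 had 20.2, 16.3, 11.6, 29.9 and 27.9 FPKM in section 9 and 46.7, 10.3, 14.2, 14.5 and 19.5 FPKM in section 8, and was listed at 0 in every library of sections 6 and 10. Each of the 4 was again above 0 in 5 to 7 libraries of sections 14 to 16. Sections 8, 9 and 16 were the 3 with the lowest median depth, at 0.229, 0.545 and 0.739, and the part of depth in this pattern was not tested.

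The comparisons that the rule did not use to rank members were those between other sections: 3 against 1, 6 against 3, 8 against 6 and 15 against 13. They ask where along the leaf the members began to change. The rule still required each of those sections to lie below the highest mean, and comparisons with a shared section are not independent. The ranking also favoured genes that were low on both sides of their highest section. A rise from section 3 to 6 or from 6 to 8, and a fall from 13 to 15, were thus favoured by the rule. Nothing is read from the shares of members beside those of all tested genes in these comparisons. The same shares are not given for the other eligible genes. A gene was called with limma where its change reached 1 on the log2(FPKM + 1) scale and its Benjamini-Hochberg adjusted p was under 0.05. The fit covered 22993 genes whose mean FPKM over the used libraries was 1 or more. All 150 members passed that filter, many through their highest section alone.

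The low level of many members limited what could be called between sections 3 and 1, since 65 of the 150 were listed at 0 in every used library of both. In the comparisons of section 6 against 3, 8 against 6 and 15 against 13 this held for 56, 57 and 48 members. Between section 3 and section 1, 11 of the 150 were higher in section 3 and 2 were lower, which is 7.33% and 1.33%, where 14.9% of all tested genes were higher and 14.3% were lower. As the members listed at 0 could not be called, nothing is read from the lower share. Separated members made up 8 of the 11. gst24 (GRMZM2G032856) rose by 2.52 ± 0.27 log2 units (SE; limma adjusted p = 7.36e-12), GRMZM5G892308 by 1.85 ± 0.32 (adjusted p = 3.3e-06) and LAC1 (GRMZM5G842071) by 1.52 ± 0.32 (adjusted p = 7.69e-05). For GRMZM5G852619 the rise of 1.58 ± 0.48 was 0.69 without replicate 4, with a limma adjusted p of 0.239. The count depended on scaling, with 7 higher and 1 lower under quantile normalization and 7 higher and 0 lower under upper quartile scaling. Without replicate 3 it was 8 higher and 0 lower.

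The named protein-coding members were all higher in section 6 than in section 3. Of the 150 members 23 were higher in section 6, or 15.3%, and 0 were lower, where 5.46% of all tested genes were higher and 11.1% were lower. Under quantile normalization 24 members were higher and 0 lower, beside 7.79% and 8.73% of all tested genes, and under upper quartile scaling 24 and 0, beside 7.45% and 7.34%. With all 75 libraries in the fit 16 members were higher. Separated members made up 21 of the 23 of the fit to 67 libraries. Their median change over all 34 was 1.49, beside -0.12 over all tested genes. The 34 were split off for a highest section above every used library of section 4. A rise over these sections was thus favoured by the split, and nothing is read from this contrast. The largest rise in the 34 was that of GRMZM2G137329, by 4.48 ± 0.65 (SE; limma adjusted p = 2.14e-07), with 152, 167, 164, 157 and 161 FPKM in section 6, against 24.0, 0.997, 4.89 and 8.12 FPKM in section 3. GRMZM2G059502 rose by 3.11 ± 0.38 and GRMZM2G056329 by 3.02 ± 0.35 (adjusted p = 5.01e-09 and 1.09e-09). Among these 5, LAC1 (GRMZM5G842071) rose by 2.27 ± 0.30, PR-5 (GRMZM2G402631) by 1.99 ± 0.34, ys1 (GRMZM2G156599) by 1.96 ± 0.24, the chitinase gene (GRMZM2G453805) by 1.78 ± 0.34 and gst24 (GRMZM2G032856) by 1.03 ± 0.25. The largest limma adjusted p of these was 0.00105, for gst24, whose change was 0.99 in the fit with the pool as a block and so fell below the threshold of 1. Without replicate 6 it was 0.92.

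Between section 8 and section 6, 17 members were higher in section 8, or 11.3%, and 6 were lower, or 4.00%, where 1.98% of all tested genes were higher and 16.6% were lower. The median change of all tested genes was -0.39, section 8 was the shallowest section, and both scalings moved the split: 23 members were higher, or 15.3%, and 2 lower under quantile normalization, beside 5.79% and 6.41% of all tested genes, and 23 and 3 under upper quartile scaling, beside 3.61% and 9.78%. GRMZM2G022881 rose by 4.26 ± 0.57 (SE; limma adjusted p = 9.97e-08) and GRMZM5G824689 by 3.83 ± 0.59 (adjusted p = 2.28e-06). GRMZM2G068519 rose by 3.51 ± 0.38 (adjusted p = 8.17e-10), with 25.4, 22.1, 19.0, 31.1 and 40.9 FPKM in section 8, against 2.50, 0, 0.840, 2.21 and 3.18 FPKM in section 6. GRMZM2G055446 rose by 2.53 ± 0.31 (adjusted p = 1.79e-08). Of the named proteins ys1 (GRMZM2G156599) rose, by 1.61 ± 0.22 (adjusted p = 2.44e-07). The changes of gst24 (GRMZM2G032856), at 0.82 ± 0.24, and LAC1 (GRMZM5G842071), at 0.80 ± 0.29, were below the threshold of 1. PR-5 (GRMZM2G402631), at -0.11 ± 0.32, and the chitinase gene (GRMZM2G453805), at 0.38 ± 0.32, did not pass the test. One separated member was lower, GRMZM2G160710, which fell by 1.90 ± 0.40 (adjusted p = 0.000256), and it was listed at 0 in 3 of the 5 libraries of section 8.

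On the far side of the maximum, 0 members were higher in section 15 than in section 13 and 2 were lower, where 0.013% of all tested genes were called in each direction, 3 genes each. At an unadjusted p under 0.05, 19 members passed in limma, or 12.7%, beside 4.34% of all tested genes. The 2 were ys1 (GRMZM2G156599), which fell by 1.95 ± 0.22 (SE; limma adjusted p = 1.24e-07), and GRMZM2G061439, which fell by 1.31 ± 0.27 (adjusted p = 0.0274). ys1 had 0.566, 0.651, 0.582, 1.22 and 0.650 FPKM in section 15, against 5.32, 6.79, 4.99, 4.53 and 7.02 FPKM in section 13. Its fall kept its call without each replicate in turn, and lost it with all 75 libraries in the fit, at an adjusted p of 0.118. GRMZM2G061439 had 9.90, 10.7, 9.76, 19.9 and 11.4 FPKM in section 15, against 31.2, 29.2, 33.5, 29.9 and 31.3 FPKM in section 13, with no overlap. The count was 1 without replicate 1, 2, 3 or 6.

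**Figure D4:**
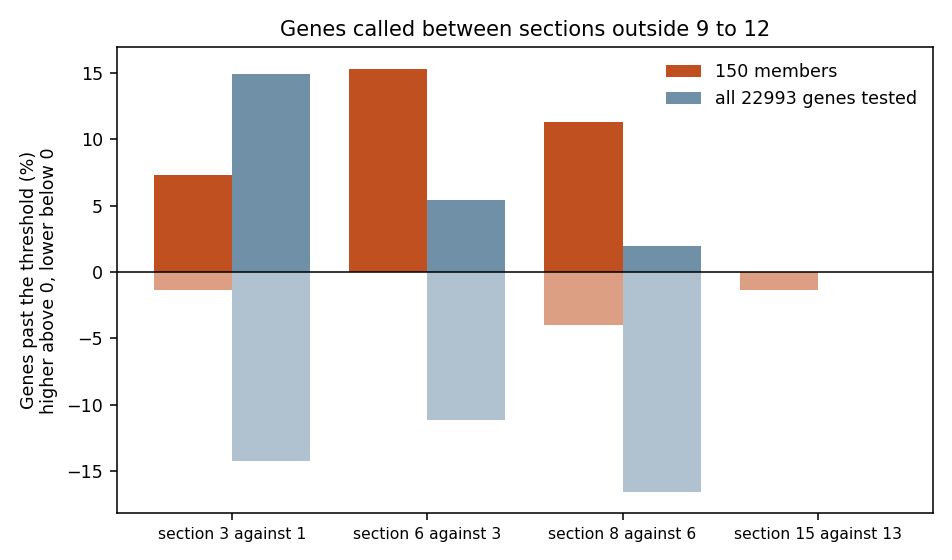
Share of genes (%) called by limma as higher (above 0, solid) or lower (below 0, pale) in the first-named section of each comparison, for the 150 members (orange) and all 22993 genes tested (blue). In section 6 against 3, 15.3% of members and 5.46% of tested genes were higher, and in 8 against 6, 11.3% and 1.98%. The rule favoured such rises, so nothing is read from these contrasts.

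Differences between the pools were also tested within sections 9 to 12, since replicates were collected on different dates. By limma's F-test over the 5 replicates, with a range of replicate means of at least 1, 0 members were called, and 0% of all 22993 tested genes. At an unadjusted p under 0.05, 8 members passed, or 5.33%, beside 6.82% of all tested genes. The sections of a pool are not independent pools, so these p-values say only how far the sections of a pool go together.

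The libraries left out by the rule gave a further view of the separated members. In replicate 1 of section 7, at a relative depth of 0.917 against 0.0341 or less in the other 4, 23 of the 34, or 67.6%, lay between the values of sections 6 and 8 of the same pool, 4 were above both and 7 below both, against 159 of the 278 other separated eligible genes, or 57.2%, that lay between. It was below the highest-section value of the same pool for 33 of the 34, against 223 of the 278, a comparison with values that the rule used. Replicate 6 of section 16 had values with a median ratio of 2.00 to the other libraries of that section. It was below the highest-section value of replicate 6 for 30 of the 34, against 76 of the 278. After division by that ratio it was below for 33 of the 34, or 97.1%, against 265 of the 278, or 95.3%, shares close to each other. ys1 had 3.95 FPKM there, against 35.2 FPKM in section 11 of the same pool.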

How the data were processed

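Polyadenylated RNA was extracted with TRIzol and its libraries kept strand, per the labels' protocols. FPKM values were deposited by the authors for 110005 maize features. TopHat2 2.0.10, Cuffdiff 2.1.1 and the build B73 RefGen_v3 are named in the submitters' processing notes. How reads of near-identical or overlapping features were divided is not given in the sources used here, so values of such features are uncertain. FPKM gives no counts, so no counting interval was made.

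Members were taken as described in the report from 67 of 75 libraries. The model was limma 3.58.1 (R 4.3.3), with its intensity-trended prior, on log2(FPKM + 1) of genes whose mean FPKM was 1 or more, in 1 fit of all sections; this scale understates changes of low genes. The fit was tested on simulated data and recovered 76% to 81% of changes of 1.5 log2 units and 93% to 97% of changes of 3 log2 units. The changes were placed only in genes of higher mean level, with normal noise that did not model listed zeros. The recovery therefore does not cover the many members listed mostly at 0. Each library of a section is a different pool, so p-values of the comparisons between sections measure the spread between libraries within sections, taken over all sections. The main fit treated libraries as independent though the same pools recur in each section. A fit with the pool as a block is among the alternatives. Same-numbered libraries came from the same pooled plants, so the numbers pair the samples; the median correlation of their deviations from the section means was 0.0147, against -0.00408 for other pairs.

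The members, lists and tests were chosen with earlier results of these data known. The rule for named genes took members with a name in a RefSeq table (Zm-B73-REFERENCE-NAM-5.0, used for names and gene order only), rank 1 and the genes at the limit; all other genes were chosen after their values were seen. Functional classes could not be applied, since that table matched 1 member to a class, the chitinase gene. Promoter motifs and sequences were not analysed here.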

Additional observations from a re-analysis of the deposited data

Results flagged for a closer look

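In 68 groups of 5 libraries or, in sections left with fewer, 4, the highest or lowest library was compared with the others by its gap, and 2 groups stood out; chance alone gives about 1 in 20. GRMZM2G080487 had 42.2 FPKM in replicate 2 of section 9, where the other 4 pools held 17.6 to 21.4 FPKM. GRMZM2G150952 had 24.2 FPKM in replicate 1 of section 11, below the 27.7 to 29.2 FPKM of the other 4 pools. Both are separated members, so by that split all their libraries there lay above every used library of sections 4 and 16.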

How the results depend on the processing

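Both the membership of the list and the counts of called members moved with the processing. A pseudocount of 0.1 kept 132 of the 150 members, a minimum mean FPKM of 1 kept 117, all 75 libraries 139, leaving out the 3 libraries that matched a distant section 125, quantile normalization 111 and upper quartile scaling 112. Leaving out 1 replicate at a time kept 101 to 114. Section medians in place of means, an alternative chosen after seeing the data, kept 62, with 31 of the 34 separated members and 0 of the 71 with a median of 0. Members called in section 3 against 1 numbered 8 under quantile normalization and 7 under upper quartile scaling, against 13, and 8 to 12 without 1 replicate. In section 8 against 6 they numbered 12 with all 75 libraries, against 23, and 17 to 21 without 1 replicate. In section 15 against 13 they numbered 0 with all 75 libraries and 1 in a fit of only the 2 sections, against 2, and 1 to 2 without 1 replicate; the cause was not tested. In section 6 against 3 they numbered 16 with all 75 libraries, against 23, and 20 to 24 without 1 replicate. With the replicate block 15, 23, 23 and 2 members were called in the 4 comparisons from section 3 against 1 to section 15 against 13, and of the called gene changes printed the block ended that of gst24 in section 6 against 3 alone. Of 48 called changes of single genes, 24 held under every alternative; of 624 values under alternatives 67 lost the call, 17 of them with all 75 libraries, and 0 changed direction. Within sections 9 to 12, 0 members were called as different between pools by limma's F-test in every alternative run, and 1 to 8 passed at an unadjusted p under 0.05. Shallow libraries of section 8 limit what an FPKM of 0 can show there.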
